A study of Medicago sativa with 9 samples.

Results

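The transcripts described here are long non-coding RNAs (lncRNAs) of alfalfa leaf that have a single exon, lie within an intron of an annotated gene, and share that host gene with at most 1 other intronic lncRNA. They were chosen by annotation alone, from the deposited class code (i, intronic), exon number and host gene name, and no measured level was used. The rule took 11250 of the 64684 listed lncRNAs, which is 17.4% of the table and 78.8% of its 14272 intronic entries. They fall in 9580 host genes. Of these hosts, 7812 held 1 intronic lncRNA, 1670 held a pair that both met the rule, and 98 held 1 single-exon member beside a spliced intronic lncRNA.

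Leaves came from the field-grown alfalfa cultivar Kangsai (Medicago sativa), sprayed 3 times at intervals of 7 days from a plant height of 20 cm. Selenite is the selenium salt named in the study's design. The low Se group received 100 mg/L and the high Se group 500 mg/L; what the control (CK) plants were sprayed with, and the age of the plants, are not given in the labels. Each group held 3 libraries of total RNA depleted of ribosomal RNA. The labels do not state whether the libraries of a group stem from different plants, and the p-values describe only the spread between libraries, part of which may be technical. The table holds only predicted lncRNAs, so the leaf identity of the samples could not be checked on marker genes.

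An intron is the stretch of a gene that is cut out of the primary transcript when the messenger RNA is made. RNA can be found there for several reasons: a separate transcript may start inside the intron, on either strand, or unspliced precursor and excised intron of the host may be sequenced. Libraries of rRNA-depleted total RNA keep all of these, whereas selection for poly(A) tails removes many. In plants, intronic lncRNAs are best known from the vernalization gene FLC of Arabidopsis, where COLDAIR arises within the first intron. The deposited table gives no host positions, no host levels and no junction reads, so that separate transcripts and retained host RNA cannot be told apart here. None of the 9580 host names matched the gene table at hand, and no function is given for any host.

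Intronic lncRNAs of this kind were short and mostly unstranded, although the library protocol marks the second strand with dUTP. Their median length was 306 bases (quartiles 239 and 449, maximum 3215), and each transcript's length equalled its genomic span. A strand was assigned to 1562 of them (13.9%), 762 plus and 800 minus, and 9688 carried none. The share with a strand was 11.1% in single-exon intronic lncRNAs of hosts with 3 or more. It was 8.63% in single-exon intergenic lncRNAs and 28.9% in the whole table. The coding potential score CPC had a median of 0.0127 and a maximum of 0.486. In 73.5% of them the CNCI score sat at -0.00041, the value nearest 0 in the table. The share was 67.7% in single-exon intronic lncRNAs of hosts with 3 or more, 58.1% in single-exon intergenic lncRNAs and 55.7% in the whole table. Among the members it fell with length, from 85.9% under 250 bases to 29.0% at 1000 bases or more.

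Levels are given in FPKM, fragments scaled to transcript length and to the mapped fragments of the library, so they can be set side by side between transcripts. The median of the members' means over the 9 libraries was 0.781 FPKM, with quartiles of 0.451 and 1.39. A mean of at least 1 FPKM was reached by 4371 of them (38.9%), of at least 10 FPKM by 72 (0.640%) and of at least 50 FPKM by 9. Single-exon intergenic lncRNAs had a lower median, 0.660 FPKM, but a larger share at 10 FPKM or more, 1.73%. The members thus formed a narrower range of levels than the intergenic transcripts, with fewer at the abundant end.

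Transcripts on either side of the limit of 2 per host had similar medians, but the abundant end thinned with the number per host. A mean of at least 10 FPKM was reached by 0.742% of members with 1 per host and 0.407% with 2. Among single-exon lncRNAs of hosts with 3 it was reached by 0.286%. Hosts with a single intronic lncRNA had a median of 0.771 FPKM and a median length of 302 bases. Hosts with 2 gave 0.796 FPKM and 316 bases. Just outside the threshold, the 1399 single-exon lncRNAs of hosts with 3 had 0.784 FPKM and 316 bases. Spliced intronic lncRNAs stood slightly higher, at 0.985 FPKM and 419.5 bases.

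Strand and length marked a wide difference in level within the members. Stranded members had a median of 1.61 FPKM and were above 0 in 7.56 of 9 libraries on average, against 0.698 FPKM and 4.31 libraries for those with no strand. The difference remained within each class of length. Under 250 bases the medians were 1.29 and 0.527 FPKM with and without a strand, and at 1000 bases or more they were 2.11 and 1.42 FPKM. Detection in all 9 libraries followed the same order, from 0.870% of the shortest unstranded members to 89.0% of the longest stranded ones. Single-exon intergenic lncRNAs showed the same order in the same length classes, for example 1.99 and 1.29 FPKM at 1000 bases or more, so this order was not particular to introns. These are descriptions over transcripts, which are not replicates. The part of depth and assembly in the assignment of a strand was not tested.

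**Figure D1:**
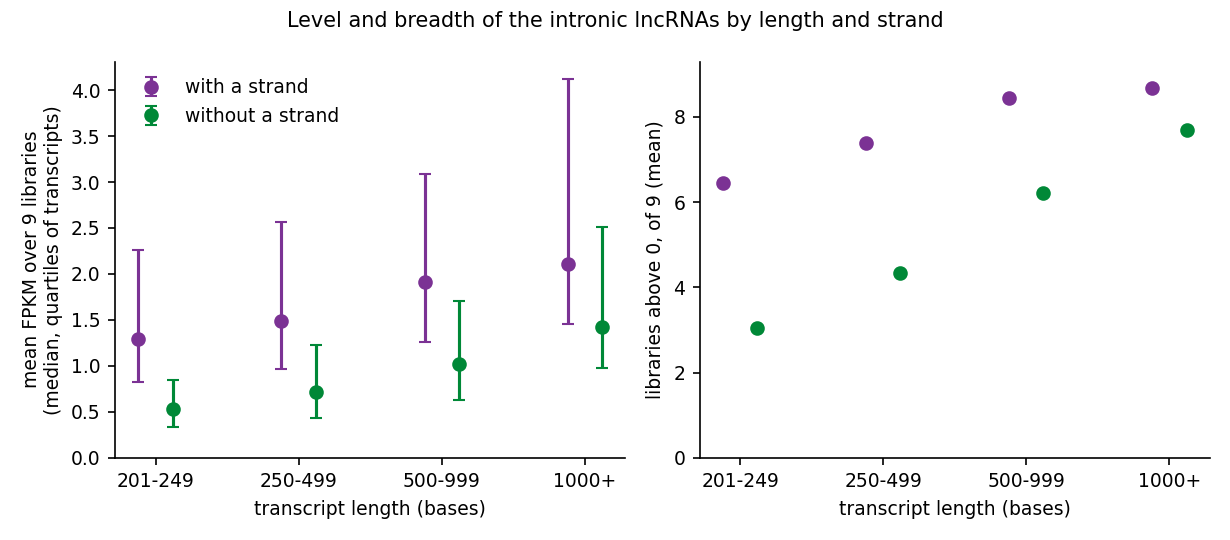
Levels and breadth of the 11250 intronic lncRNAs by length class (bases) and strand. Left, the mean FPKM over 9 libraries (point, median of transcripts; bars, quartiles); right, the mean number of the 9 libraries with a level above 0. At each length the stranded transcripts lie higher, with 1.29 against 0.527 FPKM in the shortest class.

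Chromosome 6 held markedly fewer of these transcripts, on each of its homologous copies. Alfalfa is an autotetraploid, and the table names 32 chromosomes, 4 copies of each of 8. On chromosomes 6.1, 6.2, 6.3 and 6.4 the members made up 9.57%, 10.8%, 9.97% and 10.9% of all listed lncRNAs. On the other 28 copies their share ran from 15.97% to 22.3%, so the ranges did not overlap. In numbers, chromosome 6 held 725 members and the other chromosomes 1286 to 1719. Other intronic lncRNAs, which were spliced or lay in hosts with 3 or more, were also fewer there, 173 against 310 to 539 on the other chromosomes, so the low number was not particular to hosts with 1 or 2. Single-exon intergenic lncRNAs numbered 4738 on chromosome 6 and 3756 to 4744 elsewhere. The median level of its members was 0.829 FPKM, slightly above the 0.724 to 0.812 of the other chromosomes. Unplaced scaffolds held 176 members, 5.76% of their listed lncRNAs. The number of genes per chromosome was not used here, so the share of hosts with an intronic lncRNA was not tested.

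**Figure D2:**
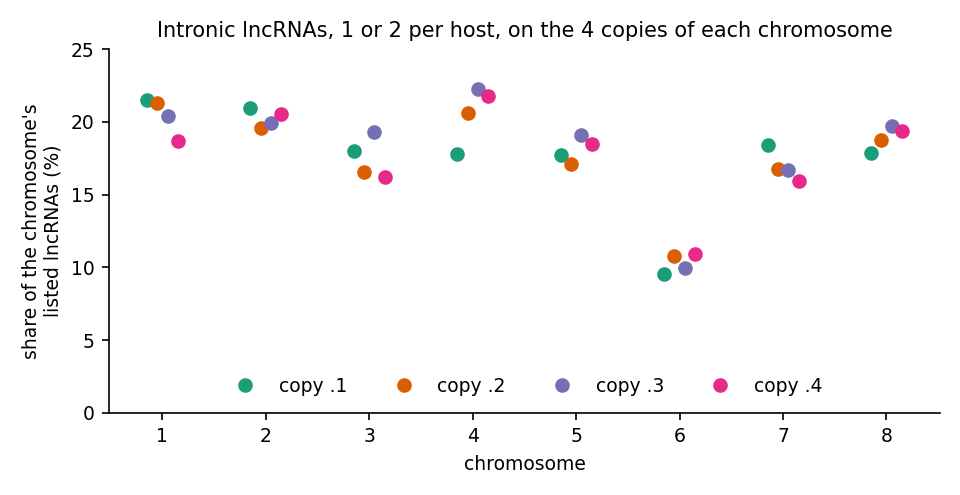
Share (%) of the listed lncRNAs of each chromosome that are single-exon intronic with 1 or 2 per host, 1 point per homologous copy. The 4 copies of chromosome 6 lie between 9.57% and 10.9%, below all 28 others.

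Most of the members were found in only some of the libraries. In a single library 1407 (12.5%) were above 0, in all 9 libraries 1446 (12.9%), and the counts in between ran from 950 to 1505; 7 were listed at 0 throughout. The 1446 found everywhere were longer, with a median of 539 bases, and 49.8% of them had a strand. Their median level was 2.52 FPKM, and the coefficient of variation over the 9 libraries was 59.4% in the median transcript (quartiles 47.7% and 74.1%). Within a group it was 53.4% in the median transcript, so libraries of the same treatment already varied nearly as much as all 9.

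Depth behind these values was modest. Set against FPKM, the coverage values gave 1.44 to 2.97 aligned gigabases per library, of which the members held 0.591% to 0.824%. Where a member was above 0, its coverage equalled a median of 7.04 to 13.1 reads of 141 bases. In the tested members the median, zeros included, was 1.32 reads in control 3, the lowest, and 7.42 in high Se 2, the highest. Counts were not used here, and no counting interval is given.

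The share of members above 0 was higher in the high Se libraries, but the groups overlapped. It was 57.6%, 47.8% and 41.7% in the control libraries, 52.0%, 56.4% and 47.0% in low Se and 54.5%, 58.9% and 59.9% in high Se. The means were 49.0% ± 7.99, 51.8% ± 4.70 and 57.8% ± 2.91 (SD, n = 3 each). Control 1, at 57.6%, lay within the high Se range, and control 3 was the lowest of all although it had 2.78 aligned gigabases. The other classes moved with the same libraries, and over the whole table the means were 46.5% ± 6.53, 47.6% ± 4.14 and 54.3% ± 2.77. The part of library quality in this was not tested. Of all FPKM in a library the members took 3.61% to 5.29%, and their 10 highest transcripts 6.20% to 11.2% of the members' sum.

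**Figure D3:**
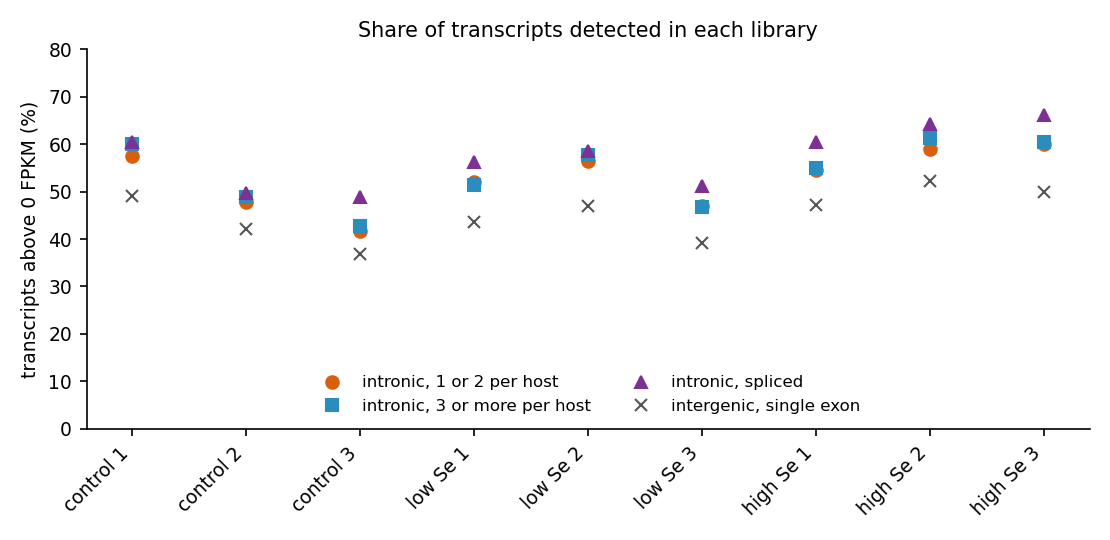
Share (%) of transcripts with a level above 0 FPKM in each of the 9 libraries, for the intronic lncRNAs with 1 or 2 per host, those with 3 or more, the spliced intronic and the single-exon intergenic lncRNAs. The 4 classes follow each other from library to library; for the first, control 3 is lowest at 41.7% and high Se 3 highest at 59.9%.

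The most abundant member was high in all 9 libraries. MSTRG.75518.1, 683 bases on the plus strand of chromosome 4.2 (51293205 to 51293887, host MS.gene061280), had 430.1, 187.9 and 277.8 FPKM in control, 257.7, 290.1 and 246.1 in low Se and 506.3, 320.9 and 477.4 in high Se. MSTRG.106325.1, 260 bases on chromosome 6.1 (7318142 to 7318401, host MS.gene074072), followed with 248.1, 78.9 and 252.4, then 326.2, 336.3 and 360.6, then 257.6, 316.1 and 179.7 FPKM. Neither passed the moderated F test of limma for any difference (adjusted p of 0.694 and 0.643). The steadiest of the abundant ones was MSTRG.116876.1 in MS.gene65520 (chromosome 6.4, 6273956 to 6274580), with a lowest level of 56.3 and a highest of 125.6 FPKM over the 9 libraries and a coefficient of variation of 28.4%. MSTRG.65977.1 in MS.gene064707 and MSTRG.86661.1 in MS.gene045991 completed the 5 with the highest minimum, ranging from 27.6 to 139.2 and from 34.7 to 162.2 FPKM.

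The other abundant members varied more between libraries. MSTRG.24140.1 (392 bases, chromosome 1.4, 40408450 to 40408841, host MS.gene90009) had 208.1 FPKM in low Se 1, 492.1 in high Se 2 and 236.4 in high Se 3. In the other 6 libraries it was listed at 0 or at no more than 1.68 FPKM, the first high Se library included (0.695 FPKM). Its levels therefore split within both selenite groups, and it did not pass the test of any difference (limma adjusted p = 0.487). MSTRG.152812.1 in MS.gene92097 on chromosome 8.3 had 153.2 FPKM in high Se 2 and was listed at 0 in high Se 3 and low Se 3. MSTRG.5102.1 on a scaffold (host MS.gene000650) ran from 6.37 to 109.2 FPKM. MSTRG.67695.1 in MS.gene08404 (chromosome 4.1, 17608172 to 17608631) had 39.2, 53.1 and 152.0 FPKM in control, 24.2, 11.4 and 12.6 in low Se and 81.9, 56.6 and 64.8 in high Se. Every low Se library was thus below each of the other 6, but the comparison of the doses did not pass (2.14 ± 0.58 SE on the log2 scale, limma adjusted p = 0.371).

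To ask which of these RNAs differed with selenite, all transcripts of the table with a mean of at least 0.5 FPKM were fitted together. This kept 7942 of the 11250 members (70.6%) among 43763 transcripts. A member counts as called where its p, adjusted by Benjamini-Hochberg over that whole set, is below 0.05. Both selenite groups are compared with the same 3 control libraries, so the 2 comparisons are not independent.

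MSTRG.91813.1 was the single member called, and it was called as higher than control at both doses. It is 415 bases long, on the minus strand of chromosome 5.1 (69642576 to 69642990), and is the only listed lncRNA of its host MS.gene47024. It had 0.373, 0.0871 and 0 FPKM in control, 142.8, 16.04 and 14.6 in low Se and 419.6, 102.7 and 239.1 in high Se. In control this stood on the equivalent of 2.80, 0.369 and 0 reads, in low Se on 706.3, 125.0 and 91.0 reads and in high Se on 2558, 898.5 and 1754 reads. No control library reached the level of any selenite library. Its rank among the 11250 members by level was 4, 46 and 31 in the low Se libraries and 2, 6 and 2 in high Se, where it took 0.655% to 2.61% of the members' FPKM.

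The rise of MSTRG.91813.1 in log2(FPKM + 0.1) was 7.29 ± 0.89 (SE) in low Se and 10.04 ± 0.89 in high Se, with limma adjusted p of 0.00576 and 0.000204. The added 0.1 makes such changes smaller than they are for transcripts near 0. Between the doses it was higher in high Se by 2.75 ± 0.89, which did not pass (limma adjusted p = 0.463), and low Se 1, at 142.8 FPKM, exceeded high Se 2. With 1 library left out, the high Se call was lost without high Se 1 (adjusted p = 0.0522). The low Se call was lost without control 2 (0.0720), control 3 (0.116), high Se 1 (0.0695) or high Se 2 (0.0660), and also in limma with no variance trend (0.119). Without any 1 of the other 5 libraries it ran from 0.0218 to 0.0473.

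No other listed lncRNA within 50 kb of MSTRG.91813.1 exceeded 14.2 FPKM in any library. On one side the nearest, MSTRG.91810.1, lies 7167 bases away in an intron of MS.gene47023 and had 2.24, 0.683 and 1.97 FPKM in control, 0, 0 and 1.10 in low Se and 2.51, 1.74 and 0.251 in high Se. On the other side MSTRG.91815.1 in MS.gene47025, at 27821 bases, had 4.35, 4.10 and 0, then 4.63, 0.602 and 1.21, then 2.85, 0.694 and 6.45 FPKM. In both, every group overlapped the others. MSTRG.91809.1, also in MS.gene47023 and 9033 bases away, had 0.952, 0.891 and 1.18 FPKM in control, 1.92, 1.65 and 1.58 in low Se and 3.43, 1.80 and 3.16 in high Se; its groups against control did not overlap, at levels far below those of MSTRG.91813.1.

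**Figure D4:**
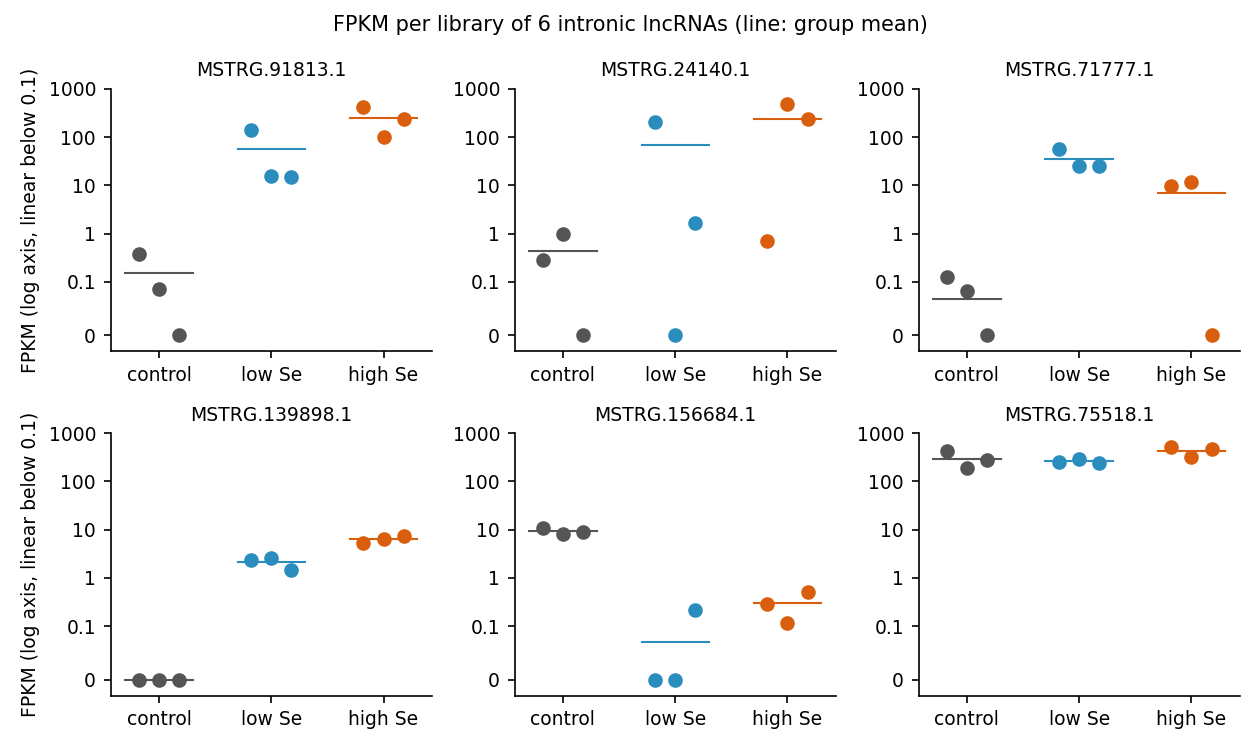
FPKM per library (points; log axis, linear below 0.1) of 6 intronic lncRNAs in control, low Se and high Se, with the group mean as a line. MSTRG.91813.1 is at most 0.373 FPKM in control and at least 14.6 in each selenite library, MSTRG.24140.1 is high in 3 libraries only, and MSTRG.75518.1 is high in all 9.

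In low Se against control, MSTRG.91813.1 was thus 1 call among 7942 tested members, where 0.0274% of all tested transcripts were called and 0.0114% were called as rising. No member was called as falling, against 0.016% of all transcripts. An unadjusted p below 0.05 was reached by 565 members (7.11%), against 8.43% of all transcripts. Of these, 313 were higher (3.94%, against 4.3% of all) and 252 lower (3.17%, against 4.13%). The median member differed by 0.10 on the log2 scale, and the median of all tested transcripts by 0.00; the members' median was -0.02 without control 3 and 0.30 without control 1. Libraries of low Se all lay above those of control in 407 members (5.12%, against 4.78% of all) and below in 313 (3.94%, against 4.32%). These shares are close to the background of the table.

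The next members by p in low Se were mostly listed at 0 in every control library, and did not pass (limma adjusted p of 0.0748 to 0.183). MSTRG.71777.1, 896 bases in MS.gene62616 on chromosome 4.2 (560586 to 561481), came nearest, with 0.123, 0.0830 and 0 FPKM in control, 57.4, 25.1 and 25.8 in low Se and 9.57, 11.8 and 0 in high Se. It passed under some alternatives, among them a pseudocount of 1 (adjusted p = 0.0340) and leaving out high Se 3 (0.00543). MSTRG.136924.1 in MS.gene46865 (1568 bases, chromosome 7.4) was listed at 0 in control and had 8.58, 4.69 and 4.95 FPKM in low Se against 0.990, 1.21 and 0.0655 in high Se. MSTRG.112843.1 in MS.gene69023 had 11.6, 6.19 and 9.48 FPKM in low Se and was at 0 in control and in 2 of the 3 high Se libraries. MSTRG.152519.1 in MS.gene88506 (12.6, 5.65 and 4.20 FPKM) and MSTRG.131549.1 in MS.gene94703 (5.46, 11.3 and 3.81 FPKM) were above 0 in low Se alone. In contrast, MSTRG.54012.1 in MS.gene057222, MSTRG.139898.1 in MS.gene044496 and MSTRG.7699.2 in MS.gene073638 were at 0 in control and above 0 in all 6 selenite libraries, at 1.11 to 6.30 FPKM in low Se. The controls of MSTRG.148770.1 (MS.gene061367) stood at 0, 0.903 and 0 FPKM, and low Se at 5.65, 15.6 and 5.91.

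Lower levels in low Se did not pass in any member (limma adjusted p from 0.1 to 0.262 in the 10 named). The first, MSTRG.156684.1, 311 bases in MS.gene65033 on chromosome 8.4 (40402253 to 40402563), had 11.0, 7.96 and 9.11 FPKM in control, 0, 0 and 0.213 in low Se and 0.287, 0.115 and 0.506 in high Se. All 6 selenite libraries lay below 1 FPKM and all 3 controls above 7, and with a pseudocount of 1 it was called at both doses. MSTRG.60214.1 in MS.gene85655 (1319 bases, chromosome 3.3) had 10.6, 19.7 and 20.0 FPKM in control, 2.69, 1.40 and 0.928 in low Se and 1.98, 4.21 and 0.945 in high Se. The control libraries of MSTRG.76606.1 (MS.gene81928) stood at 10.7, 33.6 and 21.4 FPKM and those of low Se at 3.77, 0.581 and 0.280. For MSTRG.7690.2 (MS.gene073631) the levels were 5.00, 31.4 and 6.87 FPKM, then 2.33, 0.188 and 0. In these 3, each selenite library lay below each control. MSTRG.36622.1 in MS.gene029025 was at 7.86, 17.6 and 17.5 FPKM in control and at 0 in low Se, yet had 15.4 FPKM in 1 high Se library. MSTRG.154135.2, MSTRG.68617.1 and MSTRG.70870.1 were also at 0 in every low Se library, and MSTRG.144642.3 and MSTRG.83937.1 reached at most 0.0373 and 2.43 FPKM there.

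High Se against control again called 1 member of 7942, MSTRG.91813.1, where 0.0229% of all tested transcripts were called and 0.0183% as rising. None of the members was called as falling, against 0.00457% of all. An unadjusted p below 0.05 was reached by 547 members (6.89%) and by 9.26% of all transcripts. Of these, 361 were higher (4.55%, against 6.11% of all) and 186 lower (2.34%, against 3.15%). The median member was higher by 0.26 in high Se, equal to the 0.26 of all tested transcripts. With median-of-ratios scaling the 2 medians were 0.16 and 0.15. The members' median rested on single control libraries: it was 0.05 without control 3 and 0.49 without control 1. High Se lay wholly above control in 552 members (6.95%, against 7.81% of all) and wholly below in 292 (3.68%, against 4.02%).

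Of the members named next for high Se, the first 2 were listed at 0 in control and stood at a few FPKM in each high Se library. MSTRG.139898.1, 379 bases on chromosome 8.1 (15565752 to 15566130, host MS.gene044496), was listed at 0 in control and had 2.40, 2.58 and 1.43 FPKM in low Se and 5.255, 6.54 and 7.30 in high Se. MSTRG.84503.1, 335 bases on chromosome 4.4 (22331816 to 22332150, host MS.gene28690), had 0 in control, 2.001, 1.79 and 0.689 in low Se and 5.67, 4.95 and 5.85 in high Se. In both, every high Se library was above every low Se library. Their limma adjusted p against control were 0.0622 and 0.0901, so neither passed; MSTRG.139898.1 was called with no filter (0.0301). MSTRG.79914.1 in MS.gene031835 had 0.518, 0 and 0 FPKM in control, 4.62, 1.41 and 1.47 in low Se and 3.14, 8.12 and 10.6 in high Se. MSTRG.140614.1 in MS.gene44489 had 0 in control and in low Se 1, 6.05 and 5.97 in the other low Se libraries and 7.93, 5.91 and 8.56 in high Se. It was called in high Se without low Se 1 (limma adjusted p = 0.0442).

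MSTRG.94880.1, 217 bases in MS.gene52562 on chromosome 5.2 (38579304 to 38579520), stood at a higher level. It had 9.44, 0.903 and 0 FPKM in control, 30.9, 29.0 and 22.9 in low Se and 43.1, 22.8 and 23.0 in high Se, so that all selenite libraries exceeded all controls. It did not pass in high Se (limma adjusted p = 0.216), and it was called at both doses without the filter (0.0403 and 0.0438) and without control 1 (0.0380 and 0.0359), the control in which it was highest. MSTRG.71699.1 in MS.gene98129 and MSTRG.73395.1 in MS.gene90194 were at 0 in control and ran from 2.82 to 21.4 and from 2.58 to 17.9 FPKM in high Se, but were also at 0 in low Se 2. MSTRG.7699.2 and MSTRG.54012.1, already described for low Se, completed the 10.

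The 10 named members lower in high Se had control levels from 1.33 to 20.0 FPKM, and none passed (limma adjusted p from 0.154 to 0.323). MSTRG.139482.1 in MS.gene58730 had 2.27, 6.75 and 5.45 FPKM in control, 1.02, 2.86 and 0.683 in low Se and 0 in each high Se library. MSTRG.98208.1 in MS.gene88343, MSTRG.43785.1 in MS.gene004432, MSTRG.91244.1 in MS.gene017310 and MSTRG.6610.1 in MS.gene31719 were likewise at 0 in all high Se libraries and at 1.33 to 8.155 FPKM in control. MSTRG.46314.2 in MS.gene82748 had 2.59, 11.5 and 9.51 FPKM in control, 1.10, 2.62 and 2.38 in low Se and 0.278, 0.204 and 0.104 in high Se. MSTRG.13434.1 (MS.gene46408) stood at 9.06, 9.97 and 4.24 FPKM in the controls and was otherwise above 0 only in low Se 1 (0.792), and MSTRG.37630.1 in MS.gene045713 was above 0 in control alone. MSTRG.13434.1 was called in high Se with a pseudocount of 1 (adjusted p = 0.0484). MSTRG.156684.1 and MSTRG.60214.1, given above, were the other 2.

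Between the doses limma called 0 of the 7942 tested members, against 0.0206% of all tested transcripts (0.0183% higher and 0.00229% lower in high Se). An unadjusted p below 0.05 was found for 445 members (5.60%) and for 7.84% of all. Of the 445, 265 were higher in high Se (3.34%, against 5.23% of all) and 180 lower (2.27%, against 2.61%). The groups did not overlap, with high Se above, in 473 members (5.96%, against 7.31% of all) and, with high Se below, in 328 (4.13%, against 3.94%). The median member differed by 0.13 and the median of all tested transcripts by 0.20; the members' median was 0.00 without low Se 3 and 0.26 without low Se 2. The F test over the 3 groups again called MSTRG.91813.1 alone (limma adjusted p = 0.000307), against 0.0434% of all transcripts, and lost it without high Se 1 (0.0742) and with no variance trend (0.0817). Its unadjusted p was below 0.05 in 532 members (6.70%) and in 8.94% of all.

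Several members higher in high Se than in low Se were those that low Se lacked. MSTRG.45159.2 in MS.gene90412 had 0.341, 0.863 and 1.71 FPKM in control, 0 in low Se and 3.67, 3.76 and 8.82 in high Se. It did not pass (limma adjusted p = 0.203). MSTRG.154135.2 in MS.gene035567 had 1.46, 12.7 and 1.34 in control, 0 in low Se and 4.85, 8.23 and 2.26 in high Se, with the same adjusted p. MSTRG.76009.1, MSTRG.52328.1 and MSTRG.64366.2 were also listed at 0 in all low Se libraries, with high Se levels of 0.911 to 4.96 FPKM. MSTRG.118059.2, MSTRG.121714.1, MSTRG.11511.1 and MSTRG.157233.1 reached at most 2.17, 0.891, 0.615 and 0.382 FPKM in low Se, and 4.99 to 7.70, 2.11 to 4.69, 4.67 to 14.7 and 2.54 to 6.22 FPKM in high Se. Together with MSTRG.67695.1 these were the 10 named in that direction, with limma adjusted p up to 0.392.

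Members higher in low Se than in high Se had varied control levels. MSTRG.115113.1 in MS.gene34554 (616 bases, chromosome 6.3) had 1.76, 6.27 and 3.15 FPKM in control, 6.10, 25.8 and 24.1 in low Se and 1.79, 0.504 and 1.05 in high Se. MSTRG.57128.1 in MS.gene66170, 920 bases on the plus strand of chromosome 3.3, was even in low Se only. It had 0.907, 1.11 and 2.04 FPKM in control, 3.945, 4.84 and 4.61 in low Se and 0.481, 0.154 and 0.359 in high Se. MSTRG.80605.1 in MS.gene03699 had 6.08, 9.83 and 6.05 FPKM in low Se and at most 2.07 in any other library. None passed between the doses (limma adjusted p of 0.274, 0.392 and 0.289). MSTRG.41739.1, MSTRG.79378.1, MSTRG.148601.1 and MSTRG.28098.1 reached 7.12, 11.1, 6.96 and 9.26 FPKM in low Se and no more than 0.0911 in high Se. MSTRG.152519.1, MSTRG.131549.1 and MSTRG.91244.1 completed the 10.

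Presence and absence by whole group gave few members, in shares below or near those of the table. Above 0 in every high Se library and at 0 in the other 6 were 34 members (0.302%, against 0.529% of the table). The same pattern held for 23 members in low Se (0.204%, against 0.235%) and for 15 in control (0.133%, against 0.227%). Conversely, 31 members were at 0 in control alone (0.276%, against 0.294%), 14 in low Se alone (0.124%, against 0.201%) and 7 in high Se alone (0.0622%, against 0.0587%). The high Se-only members were faint, with a highest level of 2.49 FPKM in the median member; MSTRG.137097.1 in MS.gene66870, the most abundant on average, had 4.13, 0.914 and 3.68 FPKM.

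Pairs in 1 host were examined for shared levels. Of the 1670 pairs, 26 belonged to 1 assembled locus and 3 overlapped. The gap between partners had a median of 1271 bases, with quartiles of 636.5 and 2566 and a maximum of 34833. Neither partner had a strand in 1295 pairs (77.5%), 1 had in 324, both had the same strand in 46 and opposite strands in 5. Mean levels of the partners differed by a median of 1.71-fold (quartiles 1.31 and 2.57), by less than 2-fold in 1014 pairs (60.7%) and by at least 10-fold in 18.

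A member was found more often where its partner was found. A paired member was above 0 in 53.4% ± 6.94 of cases (SD over the 9 libraries), and in 62.0% ± 5.52 where its partner in the same library was. The excess, 8.61 percentage points on average, was positive in all 9 libraries (6.22 to 13.1). It was 8.19 points for partners under 500 bases apart, 9.25 from 500 to under 1000, 9.08 up to 2000, 6.21 up to 5000 and 12.4 at 5000 bases or more. By strand, it was 8.51 points in the 1295 pairs with none, 1.82 in the 324 with a strand on 1 partner (from -0.681 over the libraries), 4.16 in the 46 of the same strand and 0.485 in the 5 of opposite strands. In the same order, members were above 0 in 48.1%, 69.3%, 87.2% and 83.3% of cases. This leaves unlike room for an excess, so its size cannot be compared between the strand classes. For neighbouring members of different hosts the excess was 6.63 points at under 5000 bases (85 neighbours, from -2.82 to 11.9 over the libraries) and 3.92 points from 5000 to under 20000 bases (866 neighbours, -0.115 to 7.46). No test was made of these shares, and the part of level, depth, length and strand in them was not tested. The shares are pooled over pairs, so pairs that differ in how readily both partners are found raise the excess without a link between partners. The same pairs enter all 9 libraries, so its sign in each library is not separate evidence. Both partners were above 0 in all 9 libraries in 47 pairs, and never in the same library in 187 (11.2%).

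**Figure D5:**
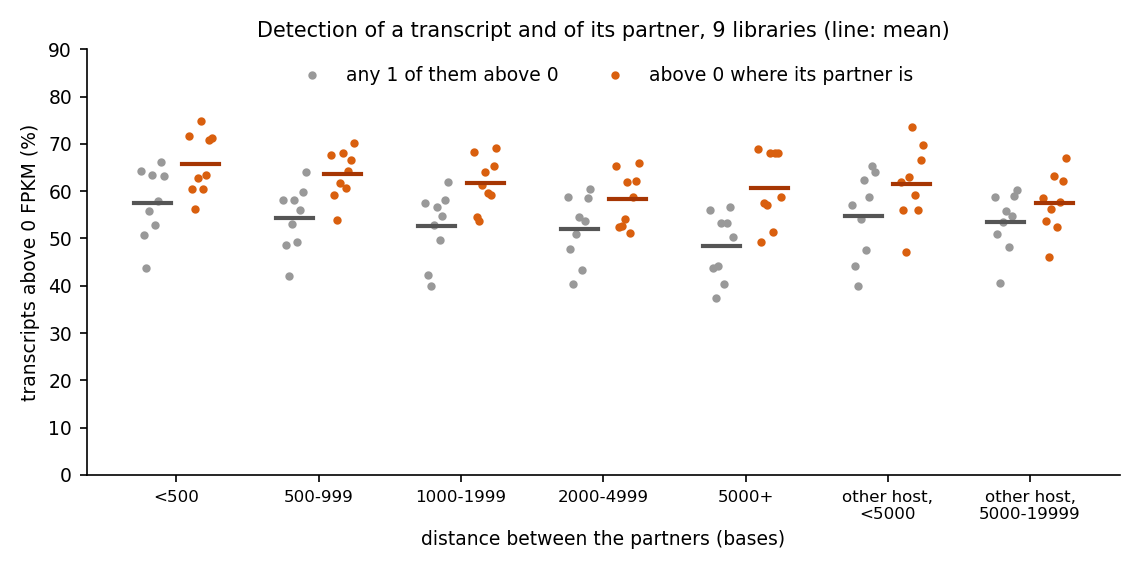
Share (%) of intronic lncRNAs above 0 FPKM in each of the 9 libraries (points) and its mean (lines), for any member of a pair (grey) and for a member whose partner is above 0 in that library (orange), by the distance between partners in bases; the last 2 classes are neighbours in different hosts. Over all pairs the means are 53.4% and 62.0%.

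The most abundant pair kept nearly equal levels in all libraries. MSTRG.116838.1, at 3215 bases the longest member, lies on the minus strand of chromosome 6.4 (5236634 to 5239848), 1147 bases from MSTRG.116839.1, 1233 bases on the plus strand (5240996 to 5242228), both in MS.gene019910. The first had 29.2, 13.01 and 14.3 FPKM in control, 25.1, 25.5 and 15.5 in low Se and 6.38, 15.0 and 2.05 in high Se. The second had 33.0, 10.7 and 14.9, then 25.8, 34.4 and 14.4, then 9.20, 10.6 and 1.72 FPKM. Each ranged more than 10-fold over the libraries, while their ratio stayed between 0.694 and 1.41. Neither passed the test of any difference (limma adjusted p = 0.537 and 0.518).

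Other abundant pairs were less alike. MSTRG.7954.1 and MSTRG.7955.1 in MS.gene39231, 1026 bases apart, had a ratio of 0.535 to 1.55. MSTRG.137262.1 was below MSTRG.137263.1, its partner in MS.gene054479, in every library, with a ratio of 0.145 to 0.821. MSTRG.113098.1 and MSTRG.113099.1 in MS.gene20669, both 231 bases on the plus strand, had a ratio of 0.607 to 6.08. MSTRG.122112.1 and MSTRG.122113.1 in MS.gene23699 varied most, with a ratio of 0.361 to 24.1 in the 8 libraries where both were above 0. None of these 8 passed that test (adjusted p from 0.580 to 0.976, limma). Of the 2 other members longest after MSTRG.116838.1, MSTRG.79105.1 (3163 bases, MS.gene052586) ran from 0.174 to 1.94 FPKM and MSTRG.106284.1 (3135 bases, MS.gene074135) from 1.19 to 7.80 FPKM.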

How the data were processed

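Each row of the deposited table is a predicted lncRNA. Per the file headers it gives FPKM per library, made by the authors, and coverage, a signal giving the mean number of reads over each base. The authors' CPC and CNCI scores, class code, host name, length and position were also deposited. HISAT2, Bowtie2, StringTie and edgeR are named in the submitters' processing notes, without roles; the genome build is not given in the sources used here. Values of 0.0001 were set to 0. Reads were estimated as coverage times length over 141 bases, the commonest product. Homologous copies can share reads, so single transcripts are uncertain.

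limma 3.58.1 (R 4.3.3) was fitted with a variance trend to log2(FPKM + 0.1) of transcripts averaging 0.5 FPKM or more, all 9 libraries in 1 fit, adjusted by Benjamini-Hochberg. The test was run first on simulated data. Named members were those called, up to 10 in each direction of each comparison by smallest p (groups not overlapping, at least 1 FPKM in the higher group), the 10 highest means, the 5 highest minima, the 5 highest pairs and the 3 longest. Members, lists and rules were chosen with earlier results of these data known. Alternatives covered pseudocount, filter, scaling, variance model, replicate block, members, thresholds and left-out libraries. Python 3.11.15, NumPy 2.4.6, pandas 2.3.3 and matplotlib 3.10.9 were used. No sequences are shown, as no genome was used.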

Additional observations from a re-analysis of the deposited data

How the results depend on the processing

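The 1 call in low Se became 3 where 1 was added to FPKM, 3 when unfiltered and 2 with the replicate block. The count was 0 without the variance trend (646 members then had an unadjusted p below 0.05). With 1 library left out it ran from 0 to 2 (2 without control 1 or high Se 3). Over all tested transcripts the 12 calls became 19, 56, 10, 1 (4138 unadjusted) and 2 to 30, in the same order. Unfiltered, 64663 transcripts and 11243 members were tested. The 1 call in high Se became 3 with a pseudocount of 1, 3 unfiltered and 0 to 2 with 1 library left out. The count was 2 without control 1 or low Se 1, and 0 without high Se 1. Over all tested transcripts the 10 calls became 36, 49 and 1 to 30. The 1 call of any difference became 6 with a pseudocount of 1, 4 unfiltered and 0 without the variance trend (652 unadjusted). Leaving out 1 library gave 0 to 2 (2 without control 1, low Se 1 or high Se 3, 0 without high Se 1). Over all tested transcripts the 19 calls became 66, 108, 5 (4557 unadjusted) and 1 to 37. Between the doses 0 members were called under every alternative, against 0 to 23 of all tested transcripts. The replicate block changed no other count of called members. The same number marked no shared deviation, with correlations of -0.0302 to 0.00147, and not every library correlated best with its own number. At 300 bases or more, control, low Se and high Se libraries held 60.2%, 64.04% and 69.9% of members above 0. At 0.5 FPKM, low Se held 44.0% and high Se 48.5%, and pairs with both members detected fell from 45.1% of those with at least 1 to 37.6%. That share was 84.5% where both partners had the same strand. With 1 library left out, the median log2 change ran from -0.02 to 0.30 in low Se, from 0.05 to 0.49 in high Se and from 0.00 to 0.26 between the doses. Few reads limit the values of most members.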

Other observations

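Members high in 1 library were often listed at 0 in another of the same treatment, though less often than transcripts of the whole table. The part of read depth in these zeros was not tested. At least 5 FPKM was reached by 2434 members in some library, and 1187 of these (48.8%) were listed at 0 in another library of the same group, against 55.3% over the whole table. At 10 FPKM the numbers were 507 and 140 (27.6%, against 41.4%). By group, at 5 FPKM, control held 574 such members (5.10%), low Se 453 (4.03%) and high Se 284 (2.52%), and the whole table followed the same order (6.91%, 5.27% and 3.66%).

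A small part of the hosts also carried lncRNAs of other classes. The matching share among other genes was not computed. Of the 9580 hosts, 583 (6.09%) also had a listed lncRNA that shares a junction with the host, overlaps it in sense or lies antisense to it, and 713 members (6.34%) lie in these hosts. Such entries numbered 531 junction-sharing, 89 sense-overlapping and 55 antisense.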
